A study of Mus musculus with 30 samples.

Results

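The insulin and relaxin family of the mouse comprises small secreted hormones and growth factors, and the 9 genes described here are Ins1, Ins2, Rln1, Rln3, Insl3, Insl5, Insl6, Igf1 and Igf2. They were taken by name from a fixed list and found in both kinds of table used: 9 of the 55011 genes counted in mTEChi cells and 9 of the 35999 gene symbols of the B6 Aire-GFP+ cells. Both are populations of medullary thymic epithelial cells (mTECs). The Aire-GFP+ cells were sorted for a green fluorescent reporter of Aire, and mTEChi is the label's name for the other sorted mTEC population.

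Insulin and the relaxins are made as prohormones that are cut into an A and a B chain held together by disulfide bonds, whereas the insulin-like growth factors keep their chains joined in a single polypeptide. Insulin and IGF-I signal through receptor tyrosine kinases, while relaxin and the insulin-like peptides with known receptors signal through G-protein-coupled receptors of the Rxfp group. Medullary thymic epithelial cells transcribe many such tissue-restricted genes, a large share of them under the control of the transcriptional regulator Aire, and so display them to developing T cells; insulin is the best known of these because loss of its thymic expression favours autoimmunity against the pancreatic islet.

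Of the 30 samples in the series, 21 libraries were used: 5 of Aire-GFP+ cells and 16 of mTEChi cells in 8 groups of 2. Each came from 1000 sorted cells of female C57BL/6J mice aged 4 to 6 weeks, after depletion of cells carrying CD45, and poly(A) RNA was amplified with the Smart-seq2 protocol. The Aire-GFP+ groups were WT (n = 3) and Aire-KO (n = 2), both without treatment. The mTEChi groups were WT and Aire-KO mice given PBS or spermidine, a polyamine, WT mice given DMSO or topotecan, an inhibitor of topoisomerase I, and Foxn1-cre Nfe2l2 wt and Foxn1-cre Nfe2l2 fl/fl mice. Foxn1-cre acts in the thymic epithelium as a whole, and Nfe2l2 encodes the antioxidant regulator NRF2. All PBS, spermidine, DMSO and topotecan were given as intraperitoneal injections, with a dose and time that the sources used here do not give. Nothing in the labels ties the replicates to separate animals, so p-values measure only the spread between these libraries, which may be technical.

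Library totals ran from 2.03 to 5.72 M counts in mTEChi and from 6.58 to 12.61 M in Aire-GFP+ cells. Levels are CPM (counts scaled by TMM to a common library size), means carry their SD, and significance is reported as the adjusted p of edgeR's quasi-likelihood test with Benjamini-Hochberg adjustment over all tested genes; a gene was called where it was below 0.05. Whole-gene Aire counts were not lower in the libraries labelled Aire-KO: the log2 difference was -0.01 in Aire-GFP+ cells (adjusted p = 0.938), 1.5 in PBS mTEChi (adjusted p = 3.46e-05) and 1.23 in spermidine mTEChi (adjusted p = 0.000134). Nfe2l2 counts differed by 0.08 on the log2 scale between flox and wt. The sources used here do not say which part of either gene is missing, so these counts do not check the labels, and the groups are called by their labels throughout. All 11 mTEC markers, among them Epcam, Krt8 and H2-Aa, had counts in every group. Their summed level was higher in Aire-KO, at 31277 to 31492 CPM in WT and 67356 to 71253 in Aire-KO Aire-GFP+ cells, and 24246 to 25590 in WT and 44802 to 46688 in Aire-KO mTEChi. Of the 11, 5 were higher and 2 lower in Aire-GFP+ cells (median log2 0.03), where 22.3% of all genes were lower and 19% higher. In the mTEChi average of both treatments 9 were higher and 1 lower (median 0.8), where 12.5% were lower and 10.3% higher. The sums rest mostly on abundant markers: in Nfe2l2 wt mTEChi, H2-Ab1 had 18188 and H2-Aa 9335 CPM of 32425 to 33634. The list includes Aire itself. The part of this shift in the results on the family was not tested.

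The 3 promoter windows are shown first, from members whose transcripts were absent or nearly absent in the libraries labelled Aire-KO that reached at least 1 CPM in a WT Aire-GFP+ library, which leaves out Insl5, and that have an entry in the RefSeq promoter table (build GRCm38.p6). They are the 250 bases upstream of the annotated start of Ins1 (chr19:52264047-52264296, plus strand), Rln1 (chr19:29334671-29334920, minus strand) and Rln3 (chr8:84044980-84045229, minus strand), each printed 5′ to 3′ on the gene's own strand. Capitals mark a CCAAT box in Ins1 and a TATA box, TATAAA, in Rln1 and Rln3.
Ins1: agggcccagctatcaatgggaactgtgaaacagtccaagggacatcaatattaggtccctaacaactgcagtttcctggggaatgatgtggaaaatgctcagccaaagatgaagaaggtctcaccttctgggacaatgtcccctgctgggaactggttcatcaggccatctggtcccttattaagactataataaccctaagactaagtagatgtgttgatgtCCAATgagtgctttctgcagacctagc
Rln1: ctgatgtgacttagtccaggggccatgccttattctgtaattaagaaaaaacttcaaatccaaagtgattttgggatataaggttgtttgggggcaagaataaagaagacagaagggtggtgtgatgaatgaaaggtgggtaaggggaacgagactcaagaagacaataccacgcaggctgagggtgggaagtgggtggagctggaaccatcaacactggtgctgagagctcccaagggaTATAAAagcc
Rln3: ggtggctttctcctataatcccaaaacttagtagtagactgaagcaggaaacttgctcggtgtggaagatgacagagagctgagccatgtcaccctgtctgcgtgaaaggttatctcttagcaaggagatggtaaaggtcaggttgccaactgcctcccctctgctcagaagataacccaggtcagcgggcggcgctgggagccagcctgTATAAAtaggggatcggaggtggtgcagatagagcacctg
The CCAAT box of Ins1 began 27 bases before the start, and the TATAAA of Rln1 and Rln3 began 10 and 40 bases before it. In the full windows of 300 bases, which add 50 bases after the start, TATAAA on either strand was held by 13.6% of all 32851 windows in the table and CCAAT by 37.4%. Of the 9 members, 7 matched an entry, with 11 windows between them, and Ins2 and Insl6 did not. The boxes were not limited to the 3 genes shown. TATAAA was also in both windows of Insl5, and CCAAT in 1 window each of Insl5, Igf1 and Igf2. A run of 5 CA dinucleotides (CACACACACA, both strands), which 1.61% of all windows held, was in none of the 11, and 3 CG dinucleotides in a row (CGCGCG), held by 11.3% of all windows, were in the window of Insl3 alone. The windows of Ins1, Rln1 and Rln3 had 0, 4 and 8 CG dinucleotides, against a median of 7 over all windows, and a GC content of 48.3, 49.7 and 54.3% against a median of 52.7%. These matches describe the letters of the windows only.

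Between genes, levels can be compared only per transcript length, and for the Aire-GFP+ cells the deposited TPM values allow this. In WT cells Igf1 stood highest, at 323 ± 28.2 TPM (n = 3), apart from all other members. Rln3 followed at 133 ± 61.0, Ins2 at 69.0 ± 14.9 and Insl6 at 63.1 ± 2.16 TPM, and neighbours in this order overlapped between libraries. Rln1 at 7.23 ± 4.16 and Igf2 at 6.52 ± 1.59 TPM overlapped each other and lay below these. Insl3 at 2.30 ± 1.99, Ins1 at 1.44 ± 1.49 and Insl5 at 0.247 ± 0.223 TPM were lowest, each overlapping the next. In the 2 libraries labelled Aire-KO the order was different: Insl6 (70.7 ± 15.2 TPM) and Igf1 (64.8 ± 6.12 TPM) were highest and overlapped, Insl3 had 6.81 ± 1.82, Rln3 1.88 ± 0.0711 and Igf2 1.13 ± 1.27 TPM, and Ins1, Ins2, Rln1 and Insl5 were at 0.

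**Figure D1:**
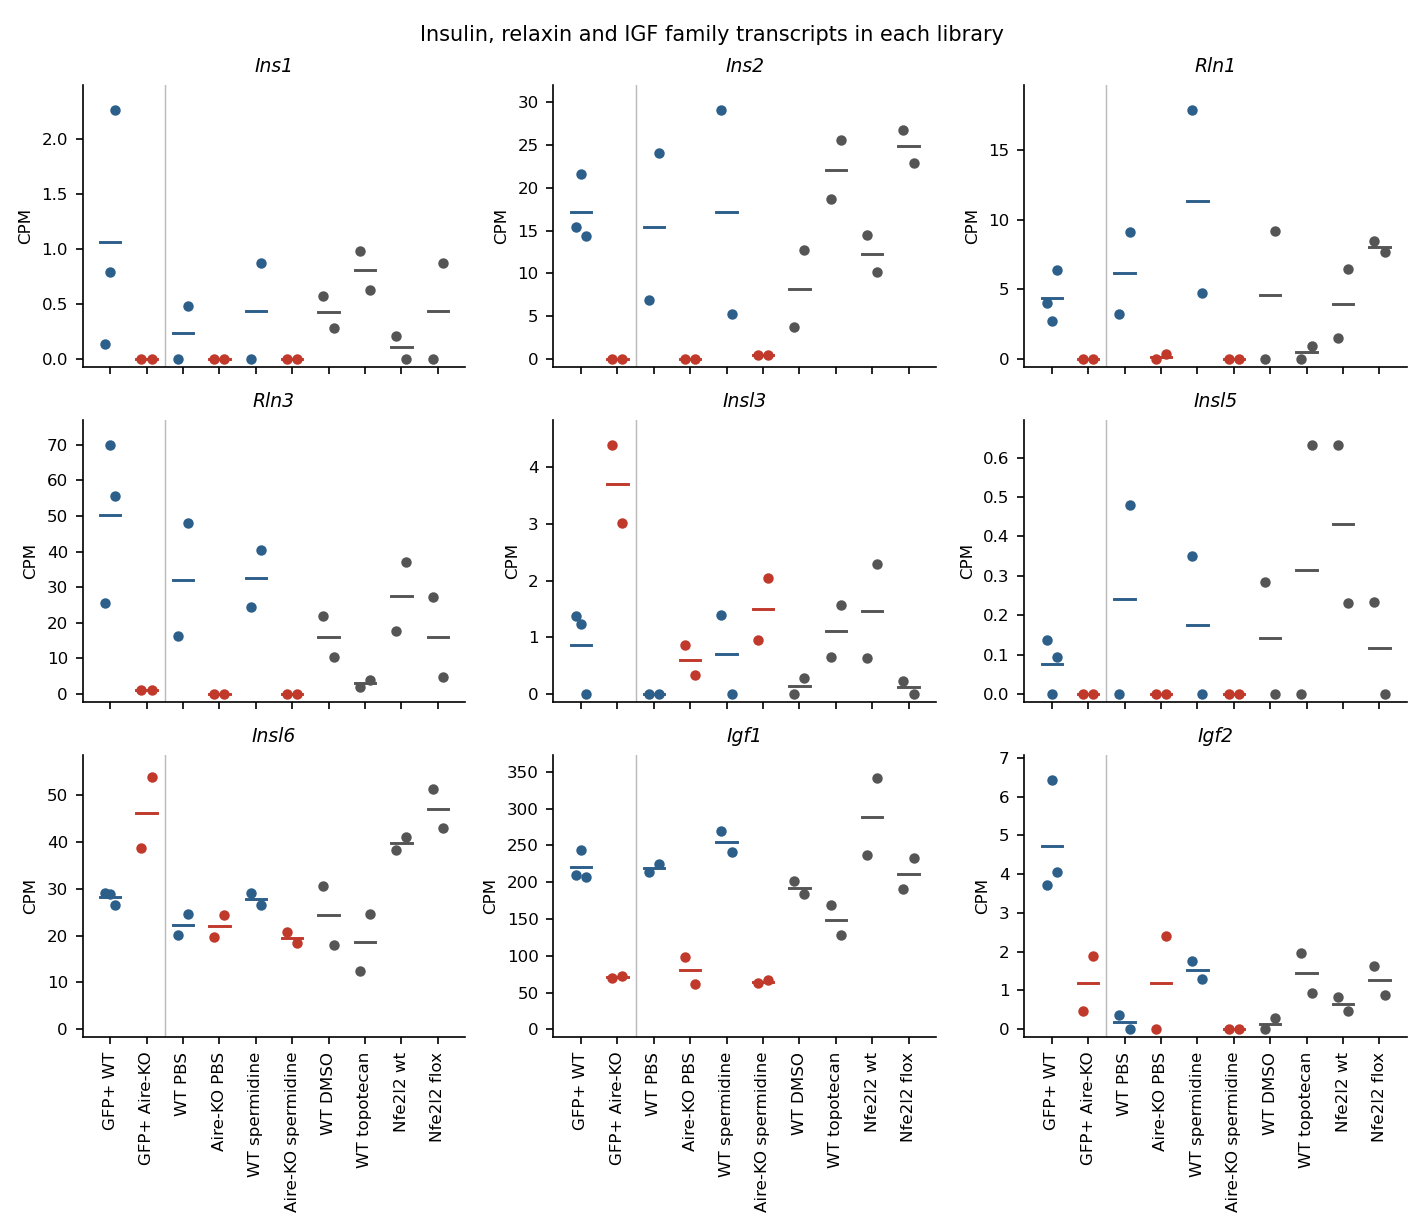
CPM (linear axis, a panel per gene) of the 9 family members in every library, with points for libraries and bars for group means; blue, WT and red, Aire-KO of the Aire-GFP+, PBS and spermidine groups; grey, the other mTEChi groups. Ins2, Rln1 and Rln3 lie at or near 0 in all libraries labelled Aire-KO, while Igf1 falls to 62.0 to 98.5 CPM and Insl6 stays above 10 CPM throughout. Levels left and right of the grey line were normalised separately.

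The question of the Aire comparisons was which members depend on Aire. The 2 insulin genes came first. Ins2 (ENSMUSG00000000215.11; GRCm38/mm10 chr7:142678656-142743381, minus strand) is the mouse counterpart of the insulin gene of other mammals, and Ins1 (chr19:52264297-52265476, plus strand) is a retrogene copy found in rodents. Ins2 had 15.5, 21.6 and 14.4 CPM in the 3 WT Aire-GFP+ libraries and no count in the 2 labelled Aire-KO. In mTEChi it had 6.86 and 24 CPM in WT with PBS, 29.1 and 5.21 in WT with spermidine, 0 and 0 in Aire-KO with PBS, and 0.481 and 0.513 in Aire-KO with spermidine. Every library labelled Aire-KO therefore lay below every WT library of its experiment. Against a floor of 3 counts over the group, Ins2 was at least 111-fold lower in Aire-GFP+ cells (adjusted p = 0.000127) and at least 24.9-fold lower in PBS mTEChi (adjusted p = 0.00527). In spermidine mTEChi, with 2 counts left in Aire-KO, the ratio was 37.1-fold (counting interval 9.996 to 311, adjusted p = 0.015). Such intervals and floors cover counting error only. Without spermidine WT replicate 1, the library with the higher Ins2 level, the adjusted p of that comparison became 0.159, and leaving out either Aire-KO spermidine library gave 0.131 and 0.125. In bulk libraries such as these, fewer cells that transcribe a gene and less of its RNA per cell cannot be told apart.

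Ins1 was near the limit of detection. It had 0.138, 0.792 and 2.26 CPM in the WT Aire-GFP+ libraries, from 1, 9 and 24 counts, and 0 in both labelled Aire-KO, at least 7.37-fold lower, but it did not pass the low-count filter and has no test. In mTEChi it reached at most 0.986 CPM, in a topotecan library, and was at 0 in all 4 libraries labelled Aire-KO and in 2 of the 4 WT libraries with PBS or spermidine.

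Rln1 and Rln3 encode relaxin and relaxin-3, the first known as a hormone of pregnancy and connective tissue and the second as a neuropeptide. Rln3 (chr8:84042929-84045000, minus strand) had 25.5, 69.8 and 55.6 CPM in WT Aire-GFP+ cells and 1.07 and 1.04 CPM in those labelled Aire-KO. In mTEChi it had 16.2 and 48.1 CPM in WT with PBS and 24.6 and 40.4 in WT with spermidine, and no count in any of the 4 Aire-KO libraries. The groups did not overlap in either cell population, and a residue of 9 and 11 counts remained only in the Aire-GFP+ libraries labelled Aire-KO. The log2 difference in Aire-GFP+ cells was -5.57 (SE 0.53, 47.5-fold lower, adjusted p = 0.000209). Rln3 was at least 52.3-fold lower in PBS mTEChi (adjusted p = 0.00337) and at least 42.5-fold lower in spermidine mTEChi (adjusted p = 0.0055). The latter became 0.0505 and 0.0518 when Aire-KO spermidine replicate 1 or 2 was left out.

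Rln1 (chr19:29331170-29334670, minus strand) was lower in level and more uneven. It had 4.00, 2.73 and 6.41 CPM in WT Aire-GFP+ cells and no count in those labelled Aire-KO, at least 27.8-fold lower (adjusted p = 0.00211). In mTEChi, WT libraries had 3.25 and 9.13 CPM with PBS and 17.9 and 4.78 with spermidine, and a single count, 0.342 CPM, was found among the 4 Aire-KO libraries. No Aire-KO library reached the lowest of these WT libraries, yet the test within a single treatment did not pass: the ratio in PBS was 30.3-fold (counting interval 5.01 to 1238, adjusted p = 0.129), and the bound in spermidine was at least 16.1-fold (adjusted p = 0.0597). With the counts of both treatments pooled, 4 libraries against 4, the ratio was 83.4-fold (counting interval 14.6 to 3331). The edgeR contrast averaged over both treatments gave a log2 difference of -6.48 (SE 1.58, adjusted p = 0.00993). Its adjusted p became 0.0579 under limma-voom.

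Insl6, Insl3 and Insl5 did not follow the relaxins. Insl6 (chr19:29321344-29325356, minus strand), a relaxin-like factor known from male germ cells, had 29.1, 28.9 and 26.5 CPM in WT Aire-GFP+ cells and 38.6 and 53.7 CPM in those labelled Aire-KO, so that both Aire-KO libraries lay above the WT range. The log2 difference was 0.71 (SE 0.18, 1.64-fold, adjusted p = 0.015). The call depended on the scaling: library totals in place of TMM moved the median of all genes from -0.12 to -0.51 and gave 0.32 for Insl6 (adjusted p = 0.187), and without Aire-KO replicate 2 the value was 0.47 (adjusted p = 0.136). The TPM values of Insl6 overlapped, at 63.4, 65.1 and 60.8 in WT and 59.9 and 81.5 in Aire-KO. In mTEChi Insl6 had 20.2 and 24.5 CPM in WT and 19.8 and 24.3 in Aire-KO with PBS, and 29.1 and 26.5 against 20.7 and 18.5 with spermidine. Neither difference passed: -0.01 on the log2 scale with PBS (95% interval -0.71 to 0.69, adjusted p = 0.99) and -0.51 with spermidine (adjusted p = 0.39).

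Insl3 (chr8:71689214-71690575, plus strand), the Leydig cell hormone of testis descent, had 1.38, 1.23 and 0 CPM in WT and 4.39 and 3.02 CPM in Aire-KO Aire-GFP+ cells. The groups did not overlap, but the difference did not pass the test (log2 2.1, 95% interval -0.26 to 4.46, adjusted p = 0.135). Of the exonic bases of Insl3, 64.85% are shared with Jak3, which fell from 26.5 to 8.39 CPM in the same libraries (log2 -1.67, SE 0.31, adjusted p = 0.00372), so reads of the pair may be split between them and the value of Insl3 is uncertain. In mTEChi Insl3 did not exceed 2.31 CPM and was not tested. Insl5 (chr4:103017872-103026842, minus strand), a peptide of colonic enteroendocrine cells, had at most 1 count in any Aire-GFP+ library and at most 0.632 CPM in any mTEChi library. All Aire-KO libraries were at 0 for Insl5, which at this depth is not distinguishable from the WT level.

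Igf1 and Igf2 encode the insulin-like growth factors. Igf1 (chr10:87858265-87937042, plus strand), the growth hormone-dependent factor made by liver and many mesenchymal cells, had 210, 244 and 208 CPM in WT and 69.2 and 72.0 CPM in Aire-KO Aire-GFP+ cells. In mTEChi, WT libraries had 214 and 225 CPM with PBS and 269 and 241 with spermidine, against 98.5 and 62.0, and 62.6 and 67.2, in Aire-KO. All 6 Aire-KO libraries lay between 62.0 and 98.5 CPM and the 7 WT libraries of the same comparisons between 208 and 269, so the groups were far apart in both populations, whose levels were scaled separately, and Igf1 kept counts in every library. Other WT mTEChi libraries lay lower, at 202 and 184 CPM with DMSO and 169 and 129 CPM with topotecan. Igf1 was 3.12-fold lower in Aire-GFP+ cells (log2 -1.64, SE 0.13, adjusted p = 8.22e-05), 2.74-fold lower in PBS mTEChi (log2 -1.46, SE 0.22, adjusted p = 0.000929) and 3.93-fold lower in spermidine mTEChi (log2 -1.98, SE 0.23, adjusted p = 0.000168). The kallisto estimates of its main annotated transcripts were all lower in Aire-KO: the most abundant, Igf1-206, had 154, 177 and 181 TPM in WT and 29.3 and 15.5 TPM in Aire-KO, and the next ranged from 98.7 to 117 TPM in WT and had 31.7 and 36 TPM in Aire-KO.

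Igf2 (chr7:142650766-142666816, minus strand), the imprinted fetal growth factor, had 3.73, 6.42 and 4.05 CPM in WT and 0.475 and 1.89 CPM in Aire-KO Aire-GFP+ cells. The ranges did not overlap, and the log2 difference was -1.97 (SE 0.68, 3.91-fold lower, adjusted p = 0.0475). This call was lost with each of 4 of the 5 libraries left out, with adjusted p of 0.0592, 0.129 and 0.0665 without WT replicate 1, 2 and 3 and 0.158 without Aire-KO replicate 1. Most of the signal was assigned to Igf2-208, annotated as a processed transcript, with 4.18, 6.15 and 3.70 TPM in WT and 0.161 and 1.70 TPM in Aire-KO. Because 64.55% of its exonic bases are shared with Gm49394 and Igf2os, the value of Igf2 is uncertain. In mTEChi Igf2 ranged from 0 to 2.40 CPM and overlapped between groups with PBS. With PBS it had 1 count in WT and 7 in Aire-KO, and with spermidine 8 in WT and 0 in Aire-KO, and these few counts were not tested. Among 5 tested genes of the surrounding imprinted region and its neighbours, 3 were lower in Aire-GFP+ cells (Th, Tspan32, Phlda2; median -3.64), and of 7 in mTEChi 5 were lower, among them Th, Ascl2, Tspan32 and H19 (median -2.0), where 22.3% and 12.5% of all genes were lower.

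**Figure D2:**
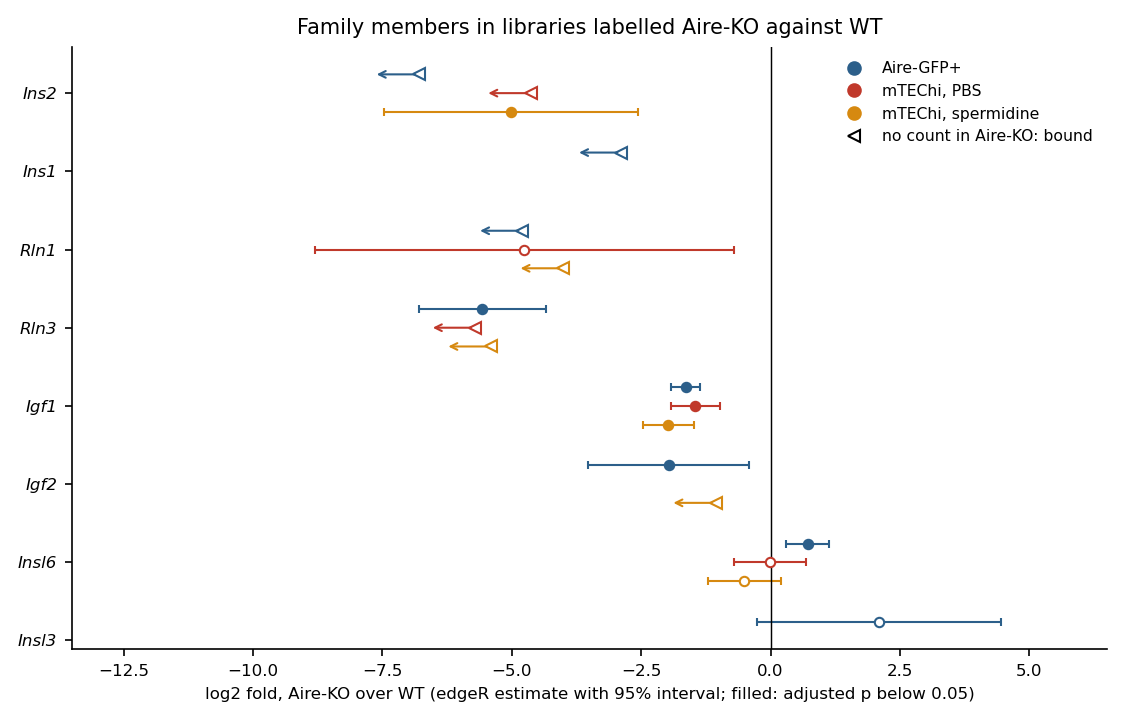
Log2 fold of each member in libraries labelled Aire-KO over WT (linear axis) in Aire-GFP+ cells (blue), PBS mTEChi (red) and spermidine mTEChi (orange), with 95% intervals; triangles with arrows are bounds for members with no count in Aire-KO, drawn open whether or not the test passed. Ins2, Rln1 and Rln3 lie far to the left, Igf1 between -1.46 and -1.98, and Insl6 on both sides of 0.

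Over the family, 7 of the 9 members passed the low-count filter in Aire-GFP+ cells; 5 of these were lower (Ins2, Rln1, Rln3, Igf1, Igf2) and 1 higher (Insl6) in Aire-KO. Of all 17923 genes tested there, 41.3% were called, 22.3% lower and 19% higher. Ins1, Ins2, Rln1, Rln3, Igf1 and Igf2, 6 of the 9 members, had every Aire-KO library below every WT library. This held for 34.6% of the 17923 tested genes, which leave out Ins1 and Insl5. Insl3 and Insl6, 2 of 9, had every Aire-KO library above, as did 29.3% of the tested genes. In mTEChi 5 members were tested, and 3 were lower and 0 higher with PBS (Ins2, Rln3, Igf1), against 5.07% lower and 5.20% higher of 18418 genes and 10.3% in either direction. The same 3 members were lower and 0 higher with spermidine, against 4.34% lower, 4.77% higher and 9.11% in either direction. Under limma-voom Igf1 alone was called in each, with adjusted p of 0.14 and 0.273 for Ins2 and 0.169 and 0.203 for Rln3. The average of both treatments, which uses the same 8 libraries, called 4 lower, Rln1 being the addition, and 0 higher, where 22.8% of all genes were called, 12.5% lower and 10.3% higher. The median log2 difference of the tested members was -1.97 in Aire-GFP+ cells, -4.76 with PBS and -5.02 with spermidine, or -1.97, -4.64 and -4.01 with genes at 0 set to their bound, where the medians of all genes were -0.12, -0.05 and -0.04. Ins2, Rln1 and Rln3, with few or no counts in Aire-KO, passed the low-count filter through the other libraries. Genes that pass in this way could be called lower but hardly higher, so these counts and medians are partly set by the filter. In an exact permutation test of mean log2(CPM + 1), with genotype permuted within treatment over 36 arrangements, 4 of the 9 members reached the smallest two-sided p the design allows, 0.0556: Ins2 (-3.50), Rln1 (-2.94), Rln3 (-4.94) and Igf1 (-1.72). The same 4 members, all of them tested, had every Aire-KO library below every WT library with PBS or spermidine. This held for 13.4% of the 18418 tested genes. Among the members 0 had every Aire-KO library above, which held for 13.0% of the tested genes.

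The position of the members showed contrasts between close neighbours. Rln1 and Insl6 lie 5814 bases apart on chromosome 19, in the same orientation, between Jak2 and Plgrkt. Rln1 had 1 count over all 6 Aire-KO libraries. In Aire-GFP+ cells Insl6 and Jak2, which encodes a cytokine receptor kinase, were called higher (Jak2 log2 0.66, adjusted p = 0.0299). The call of Insl6 was lost with library totals in place of TMM, and Jak2 was not tested under other scalings. Plgrkt, a plasminogen receptor, was not called in these cells (0.25, adjusted p = 0.144). In mTEChi averaged over both treatments, Insl6 had -0.26 (adjusted p = 0.467) and Jak2 -0.11 (adjusted p = 0.723), and Plgrkt fell by 0.37 on the log2 scale (adjusted p = 0.031). Rln3 lies 340 bases from Il27ra, a cytokine receptor gene, which was called in neither population (-0.64, adjusted p = 0.0823 in Aire-GFP+ cells and 0.43, adjusted p = 0.481 in mTEChi). On chromosome 7, Ins2 lies 11840 bases from Igf2 and 149371 bases from Th, the tyrosine hydroxylase gene of catecholamine synthesis. Th fell with Ins2, from 32.1 to 0.119 CPM in Aire-GFP+ cells (log2 -8.07, SE 0.80, adjusted p = 0.000235) and by 5.70 on the log2 scale in mTEChi (SE 0.68, adjusted p = 4.32e-05), whereas Mrpl23, on the far side of Igf2, was called in neither (0.16, adjusted p = 0.848 and -0.41, adjusted p = 0.506).

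**Figure D3:**
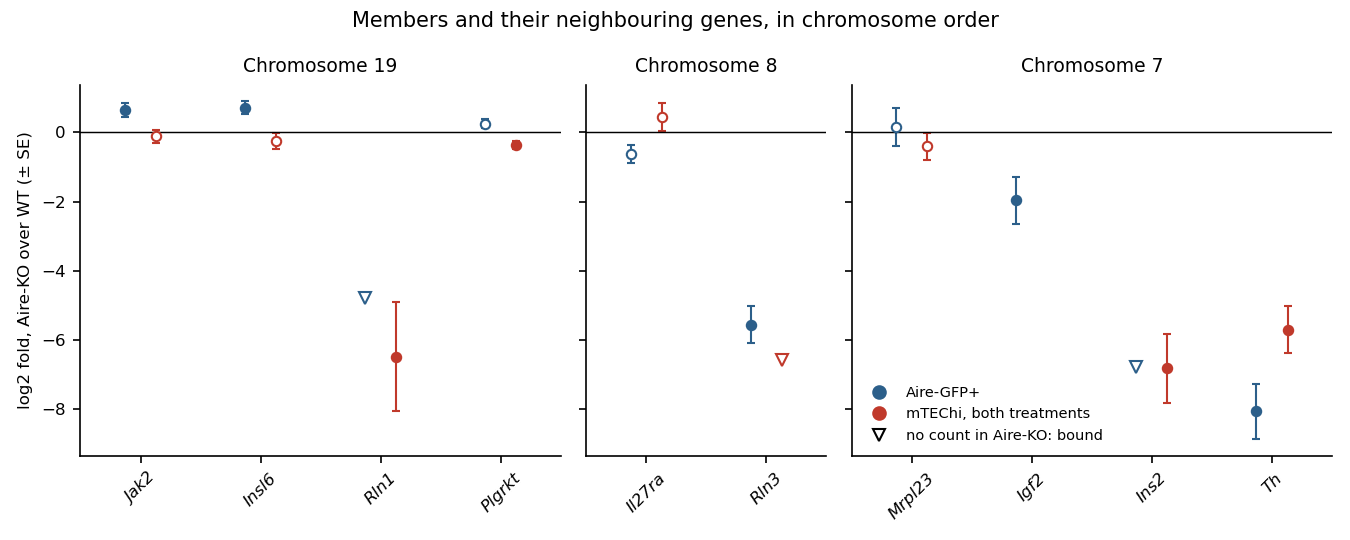
Log2 fold ± SE (linear axis) of members and neighbouring genes in chromosome order, libraries labelled Aire-KO over WT, in Aire-GFP+ cells (blue) and in mTEChi averaged over PBS and spermidine (red); filled points passed an adjusted p of 0.05, and triangles are bounds for genes with no count in Aire-KO. Rln1, Rln3, Ins2 and Th lie far below 0, beside neighbours such as Insl6, Il27ra and Mrpl23 that lie within 1 log2 unit of it.

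The receptors, carriers and signalling partners of the family were given by fixed lists, whose counts stand beside 22.3% of all genes lower and 19% higher in Aire-GFP+ cells and 12.5% lower and 10.3% higher in the mTEChi average. Of the 8 receptor genes, 7 were tested in Aire-GFP+ cells, with 1 higher and 1 lower (median log2 -0.72). Insr, the insulin receptor, rose from 32.8 to 75.5 CPM (log2 1.20, adjusted p = 0.000464), and Rxfp3, the receptor of relaxin-3, fell from 1.68 CPM to 0 (adjusted p = 0.0181). In mTEChi none of 6 tested receptors was called in the average of both treatments (0 higher, 0 lower, median 0.18). Among 13 IGF binding proteins and their proteases, 2 were higher and 6 lower in Aire-GFP+ cells (median -0.85), and 1 was higher and 3 lower in mTEChi (median -0.44). Igfbp6, a binding protein with a preference for IGF-II, fell from 71.2 to 5.99 CPM in Aire-GFP+ cells (log2 -3.57, adjusted p = 8.9e-05) and from 70.3 to 6.20 CPM in mTEChi (log2 -3.51, adjusted p = 0.00014). Pappa2, a protease that frees IGF-I from its carriers, rose by 1.18 and 0.97 on the log2 scale (adjusted p = 0.00282 and 0.0177). Of 19 tested signal transducers, 5 were higher and 4 lower in Aire-GFP+ cells (median -0.07), and 4 were higher and 2 lower in mTEChi (median 0.10), with a share called in Aire-GFP+ cells near the 41.3% of all genes. The adaptor Grb14, an inhibitor of the insulin receptor, fell in both (log2 -4.83, adjusted p = 0.000257 and log2 -1.97, adjusted p = 0.00292), and the phosphatase Ptpn1, another inhibitor, rose in both (log2 0.86, adjusted p = 0.0065 and log2 0.95, adjusted p = 2.93e-05).

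Genes of the tissues from which the hormones are known were given by further fixed lists. Their counts stand beside 22.3% of all genes lower and 19% higher in Aire-GFP+ cells, and 12.5% and 10.3% in the mTEChi average. Of 6 other islet hormones, 5 were lower in Aire-GFP+ cells (median -6.14) and 4 in mTEChi (median -4.88), none higher. Pyy and Ppy, peptides of the neuropeptide Y family, fell from 62.0 and 44.2 CPM to 0 in Aire-GFP+ cells, and Iapp, the amylin co-secreted with insulin, fell by 2.52 on the log2 scale (adjusted p = 0.0199). Of 11 tested genes of prohormone processing and secretory granules, 6 were lower and 1 higher in Aire-GFP+ cells (median -1.0), and 3 were lower in mTEChi (median -0.78). Chgb, a granule protein, fell in both (log2 -3.33, adjusted p = 0.0112 and log2 -4.54, adjusted p = 0.00638). Pcsk2, a prohormone convertase, also fell in both (log2 -1.17, adjusted p = 0.0293 and log2 -1.96, adjusted p = 0.0263), whereas Scg5, its chaperone, rose in Aire-GFP+ cells and fell in mTEChi (log2 0.76, adjusted p = 0.0124 and log2 -0.48, adjusted p = 0.0321). Of 8 tested islet transcription factors, 1 was higher and 2 lower in each population (medians -0.50 and -0.82). The share called in Aire-GFP+ cells was near the 41.3% of all genes. Insm1 rose (log2 2.27, adjusted p = 6.8e-05 in Aire-GFP+ cells; 1.17, adjusted p = 0.0119 in mTEChi), and Neurog3, the factor of endocrine progenitors, fell from 8.94 CPM to 0 and from 3.41 CPM to 0. Of the 14 factors of the list, all had counts in WT Aire-GFP+ cells, and Pdx1, Neurod1, Nkx6-1, Pax4 and Neurog3 were at 0 in Aire-KO. For factors that failed the low-count filter, a 0 may not differ from the WT level. The 14 factors summed to 68.7 to 80.2 CPM in WT and 105 to 131 CPM in Aire-KO Aire-GFP+ cells. In mTEChi they summed to 79.3 to 104 CPM in WT and 72.2 to 79.5 CPM in Aire-KO. In mTEChi the beta cell factor Nkx6-1 was at 0 also in WT cells with PBS and with spermidine, and Pdx1 and Nkx6-1 both had counts in Aire-KO cells with PBS. Of 7 tested genes of Leydig cells and gonads, 3 were lower in Aire-GFP+ cells (median -0.69) and 2 in mTEChi (median -1.88), among them Cyp11a1, the first enzyme of steroid synthesis (log2 -4.72, adjusted p = 0.000632 and log2 -3.06, adjusted p = 0.00764).

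Markers of other cells were read beside Igf1, which mesenchymal cells also transcribe. The shares of all genes, lower and higher, were 22.3% and 19% in Aire-GFP+ cells and 12.5% and 10.3% in the mTEChi average. Of 9 tested fibroblast markers, 3 were higher and 3 lower in Aire-GFP+ cells, and of 10 in mTEChi 0 were higher and 5 lower. Their summed level was 117 to 166 CPM in WT and 285 to 373 CPM in Aire-KO Aire-GFP+ cells, the latter mostly Dcn, which rose from 44.9 to 273 CPM while Col1a1 fell from 32.0 to 0.331 CPM. In mTEChi the sum was 246 to 481 CPM in WT and 231 to 275 CPM in Aire-KO, and Col1a1 fell from 81.8 to 2.27 CPM. None of the 10 markers was at 0 in a group. Macrophage and dendritic cell markers summed to 1404 to 1719 CPM in WT and 1425 to 2077 CPM in Aire-KO mTEChi, and to 1093 to 1493 and 2214 to 2232 CPM in Aire-GFP+ cells. The higher sum in Aire-KO Aire-GFP+ cells was mostly Lyz2, which rose from 1057 to 2126 CPM, while of 11 tested markers 2 were higher and 5 lower (median -1.12), among them Adgre1, which fell from 36.3 to 0.379 CPM, and C1qa, which fell from 26.4 to 3.79 CPM. Of 4 endothelial, 9 thymocyte and 5 erythroid markers tested in Aire-GFP+ cells, 2, 2 and 0 were called, and of 5, 9 and 5 in mTEChi 1, 1 and 0. Of all genes, 41.3% and 22.8% were called in these comparisons. The part of these cells in the Igf1 difference was not tested.

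Spermidine, topotecan and Nfe2l2 deletion were compared to ask whether they alter expression of such genes. None of the 5 tested members was called in any of these contrasts. In the Aire-KO groups Ins2, Rln1 and Rln3 had at most 2 counts each, too few for the contrasts that use these groups to decide. Spermidine in WT mTEChi called 0% of all genes (709 at an unadjusted p below 0.05), and the members' log2 differences were 0.19 for Ins2 (95% interval -1.36 to 1.75), 0.90 for Rln1, 0.02 for Rln3 (95% interval -1.55 to 1.59), 0.32 for Insl6 and 0.22 for Igf1 (95% interval -0.23 to 0.67), each with an adjusted p of 0.999. The intervals of Ins2 and Rln3 are wide, and so were the differences between their replicates. In Aire-KO cells spermidine called 0.00543% of all genes (760 at an unadjusted p below 0.05), and Igf1 and Insl6, the members with more than 10 counts in these libraries, differed by -0.30 and -0.17 (adjusted p = 1 for both). The difference of the spermidine effects between genotypes called 0% of genes (619 at an unadjusted p below 0.05), with -0.52 for Igf1 (95% interval -1.19 to 0.15, adjusted p = 1). Foxn1-cre Nfe2l2 fl/fl against wt also called 0% (973 at an unadjusted p below 0.05). Ins2 had 14.5 and 10.1 CPM in wt and 26.8 and 22.9 in flox (log2 1.01, 95% interval -0.49 to 2.50), and Igf1 had 237 and 342 in wt and 191 and 232 in flox (log2 -0.45, adjusted p = 0.937). Neither reached the threshold, although the libraries of the groups did not overlap. Among the 9 members, 2 (Insl3, Igf1) had both flox libraries below both wt libraries, and 4 (Ins2, Rln1, Insl6, Igf2) had both above. Of the 18418 tested genes, 17.4% lay below and 16.5% above in this way. Insl3 and Igf2 are not among the tested genes, so these shares do not apply to them.

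Topotecan against DMSO called 0.652% of all genes, 0.456% lower and 0.195% higher, and 0 members. Rln3 had 21.9 and 10.3 CPM with DMSO and 1.97 and 4.10 CPM with topotecan. Ins2 had 3.69 and 12.8 CPM with DMSO and 18.7 and 25.6 CPM with topotecan. The 2 groups did not overlap for either gene, with Rln3 lower and Ins2 higher under topotecan. Among the 9 members, 2 (Rln3, Igf1) had both topotecan libraries below both DMSO libraries, and 4 (Ins1, Ins2, Insl3, Igf2) had both above. Of the 18418 tested genes, 19.7% lay below and 20% above in this way. Ins1, Insl3 and Igf2, which rest on few counts, are not among the tested genes, so these shares do not apply to them. Rln3 differed by -2.38 on the log2 scale (SE 0.86, 95% interval -4.25 to -0.51, adjusted p = 0.239), and Ins2 by 1.42 (SE 0.73, 95% interval -0.14 to 2.99, adjusted p = 0.409). Rln3 passed when no low-count filter was used (adjusted p = 0.000188). That setting called 1006 genes in place of 120 with topotecan, and 111 in place of 0 for spermidine in WT. Rln1, present in 1 of 2 DMSO libraries (0 and 9.17 CPM) and with 0 and 0.947 CPM under topotecan, differed by -3.16 (adjusted p = 0.4), and Igf1 and Insl6 by -0.37 (adjusted p = 0.461) and -0.39 (adjusted p = 0.634). Aire itself fell from 1328 to 723 CPM (log2 -0.88, adjusted p = 0.0128). Among genes of the lists, Chgb fell from 29.6 CPM to 0 (adjusted p = 0.0404), Th from 30.9 to 2.58 CPM (adjusted p = 0.041) and the islet factor Rfx6 by 3.78 on the log2 scale (adjusted p = 0.0107). A fit to the topotecan experiment only called 1 gene in place of 120, so most calls of this contrast depend on the fit shared by all mTEChi groups. Fibroblast markers summed to 490 to 882 CPM with DMSO and 296 to 1535 CPM with topotecan, and their part in these values was not tested.

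**Figure D4:**
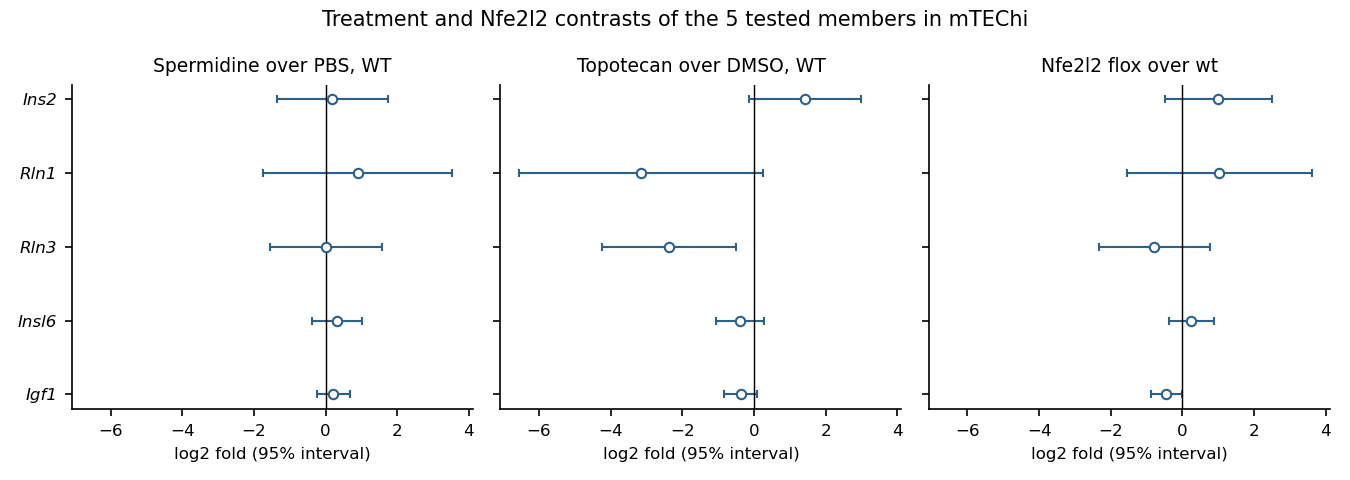
Log2 fold with 95% interval (linear axis) of the 5 tested members in mTEChi for spermidine over PBS in WT, topotecan over DMSO in WT and Foxn1-cre Nfe2l2 flox over wt. No point passed an adjusted p of 0.05; Rln3 and Ins2 lie on opposite sides of 0 under topotecan, at -2.38 and 1.42.

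The members differed in how evenly they were expressed between libraries of 1 group. The biological coefficient of variation over the mTEChi libraries was 0.847 for Rln1, 0.505 for Rln3 and 0.503 for Ins2, against 0.206 for Insl6, 0.156 for Igf1 and a median of 0.257 over all tested genes. Genes of like abundance had a trend value of 0.490 for Rln1, 0.299 for Rln3, 0.333 for Ins2, 0.223 for Insl6 and 0.142 for Igf1, so that Igf1 and Insl6 lay near their trend and the other 3 above it. Ins2 differed 5.59-fold between the WT spermidine libraries, Rln3 5.55-fold between the Nfe2l2 flox libraries and Rln1 had 0 and 9.17 CPM in the DMSO libraries. The higher library of a group was not the same for each member: in WT spermidine Ins2 and Rln1 were higher in replicate 1 and Rln3 in replicate 2.

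Across the 16 mTEChi libraries, Pearson's r of log2(CPM + 1) described which genes had the most similar pattern among 13051 with a mean of at least 5 CPM. These r values share the libraries and their genotype groups, and have no test. Ins2 was closest to Tgtp1 (0.93), Ly6g (0.924) and Gpx3 (0.923), and Rln3 to Crabp1 (0.927), Cpz (0.919) and Muc5ac (0.915). Igf1 was closest to Mbl2 (0.961), Lypd2 (0.95) and Pla2g1b (0.947), and Insl6 to Bsg (0.917), Cisd1 (0.911) and Atp6v1e1 (0.899). Among the members, r was 0.902 between Rln3 and Igf1, 0.769 between Ins2 and Igf1 and 0.699 between Ins2 and Rln3, and 0.364 to 0.521 between Insl6 and the others.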

How the data were processed

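Poly(A) RNA of 1000 sorted mTECs per library was profiled by Smart-seq2 and Nextera XT, without molecular identifiers or strand, per the labels' protocols. The mTEChi tables as deposited hold whole-number raw counts of reads for each gene. The Aire-GFP+ tables hold, per the file headers, estimated counts (kallisto) and TPM of each transcript, with its length and effective length. The submitters' processing notes also name STAR, featureCounts, TopHat2 2.1.1, SAMtools 1.3.1 and mm10, without roles; the annotation and the handling of reads shared by overlapping genes are not given in these sources. Of 118489 transcripts, 116816 matched GENCODE M21 and were summed to 35999 symbols and rounded; the other 1673 held 0.541 to 0.578% of counts. The 6 NOD libraries and 3 F1 samples were not analysed here.

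Counts were tested with edgeR 4.0.16 in R 4.3.3 (TMM, filterByExpr, quasi-likelihood). All 16 mTEChi libraries shared 1 fit, and the 5 Aire-GFP+ libraries another, so levels are not compared across the populations. Alternatives were library totals or RLE scaling, other filters, DESeq2 1.42.0, limma-voom 3.58.1, an effective-length offset, a replicate block, single-experiment fits and leaving out each library. Replicates differed by more than counting error (chi-square per degree of freedom 3.05 to 19.7). The steps were tested on simulated data. All 9 members are described; up to 4 called genes of a list are named by smallest p, or the 2 most abundant where none is called, together with neighbours and the 3 most similar genes. Genes of a list named beyond these were chosen after their values were seen. The members and lists were chosen with earlier results of these data known.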

Additional observations from a re-analysis of the deposited data

How the results depend on the processing

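Of the values of single members under other settings, 338 stayed the same, 7 lost a call, 8 gained one and 1 reversed. With a library left out the numbers were 250, 11, 0 and 10. For the edgeR contrasts, the same means the same direction and side of the threshold. The numbers that stayed the same include 12 alternatives of the permutation test for each of the 9 members. These were compared by direction only and could not lose or gain a call. Igf1 kept its call in every alternative of the 4 Aire comparisons, with log2 values of -2.04 to -1.58 in Aire-GFP+ cells, -1.81 to -1.16 with PBS, -2.14 to -1.89 with spermidine and -1.89 to -1.57 for their average. Ins2 and Rln3 kept theirs in 13 of 13 alternatives in Aire-GFP+ cells. The number of members called moved from 3 to 1 (Igf1) under limma-voom with PBS and with spermidine; leaving out a library gave 1 to 3 with spermidine, 1 without either Aire-KO spermidine library. With topotecan it moved from 0 to 1 (Rln3) with no low-count filter. Ins2 with PBS had an adjusted p of 0.0503 without Aire-KO PBS replicate 2. Rln1 gained a call with PBS with no filter (0.00185) and in a fit to that experiment only (0.0303), and with spermidine with no filter (1.34e-05), DESeq2 (0.00591) and that experiment only (0.0101). Insl3 gained one in Aire-GFP+ cells with no filter (0.0229), and Igf2 lost its call with an effective-length offset (0.0815). The cause was not tested.

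Values that reversed were small or uncalled in the text. Insl6 with PBS had 0.012 under limma-voom and -0.18 to 0.13 with a library left out (0.13 without WT PBS replicate 2 or Aire-KO PBS replicate 1). For spermidine in WT, Ins2 had -0.47 and -1.54 and Rln3 -0.57 and -0.38 with single libraries left out, within ranges of -1.54 to 1.34 and -0.57 to 0.99, and Rln1 had -0.36 (range to 1.80). Igf1 for spermidine in Aire-KO had 0.056 without Aire-KO PBS replicate 1 (range from -0.60). Under topotecan Rln1 had 3.71 without DMSO replicate 2 (range from -6.90) and Insl6 0.010 without topotecan replicate 1 (range from -0.97).

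Same-numbered libraries did not deviate together (correlations -0.01 to 0.058), so the numbers are not taken as pairs. With the replicate number as a block, Rln1 with spermidine had an adjusted p of 0.0287 and topotecan called 193 genes in place of 120; no other call on a member changed. Counts over all genes moved by over 1.5 times in the following. Leaving out a library gave 4785 to 6961 in Aire-GFP+ cells (7410 with all), 633 to 1186 with PBS (1892), 553 to 794 with spermidine (1677) and 50 to 170 with topotecan (120). Limma-voom gave 1072 with PBS, 836 with spermidine, 2753 for their average (4198) and 60 with topotecan, DESeq2 gave 415 with topotecan and a fit to that experiment only gave 1. No low-count filter gave 2517 with spermidine, 1006 with topotecan, 111 and 76 for spermidine in WT and Aire-KO, 78 for their difference and 134 for Nfe2l2, where DESeq2 gave 26 and leaving out Nfe2l2 wt replicate 1 gave 11. Library totals moved the share of higher genes among those called from 46 to 20.4% in Aire-GFP+ cells, from 50.6 to 30.2% with PBS, from 52.4 to 34.2% with spermidine and from 45 to 27% for their average. Depth limits Ins1, Insl3, Insl5 and mTEChi Igf2, which rest on few counts.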
